A study of Homo sapiens with 2 samples.

Results

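The set called immediate early transcription factor genes here is FOS, FOSL1, FOSL2, JUN, JUNB, JUND, EGR1, ATF3, IER2 and IER3. Their mRNAs were examined for binding by IGF2BP3. The name does not suit every member, since IER3 encodes a survival-associated protein and JUND the most constantly expressed JUN protein. The 10 genes were taken by name from the 20033 protein-coding genes of GENCODE 44, and a peak belonged to a gene when it overlapped the annotated span on hg38. IGF2BP3 binds mRNA through KH and RRM domains and is counted among the readers of N6-methyladenosine (m6A). Its sites were mapped by LACE-seq, in which RNA is crosslinked to the protein with UV light, immunoprecipitated and cut, and the cDNA ends are amplified and sequenced. The cells were OE-19, an established human line of gastroesophageal adenocarcinoma, with no treatment or genetic change given in the labels. Both samples, replicates 1 and 2, form a single group, and no input, IgG or knockdown library was analysed here. With 2 replicates and no control there is no contrast to test, so each value below is a description of these lists.

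Immediate early genes are transcribed within minutes after growth factors or stress reach the cell, without new protein synthesis, and their mRNAs decay fast. FOS and JUN family proteins pair through leucine zippers to form the transcription factor AP-1, EGR1 is a zinc finger factor, and ATF3 is a stress-induced leucine zipper protein. The fast decay is encoded in the mRNA itself, in AU-rich elements of the 3′ UTR built on the pentamer ATTTA, written here as DNA, and in FOS also in a determinant within the coding sequence (CDS). IGF2BP proteins are known for binding such a coding determinant in MYC mRNA and for stabilizing target mRNAs.

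Of the 10 genes, 9 had a peak in each replicate, and in all 9 the lists shared at least 1 bp of a peak. ATF3 had no peak in either list. Of all protein-coding genes, 41.0% (8223 of 20033) had a peak in replicate 1, 42.2% (8445) in replicate 2 and 30.5% (6119) an overlapping pair. Such a pair was found for 63.0% of the 9712 protein-coding genes that had any peak, and for 9 of the 9 immediate early genes that did. The immediate early mRNAs are 1237 to 6713 nt long, and 4556 of the 14676 protein-coding genes in that range had an overlapping pair. A peak needs both an abundant RNA and its recovery with IGF2BP3, and these cannot be told apart from peak lists alone.

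Replicate 1 held 21142 peaks and replicate 2 held 20799, and 19 of each lay on the immediate early genes. The total number of reads is unknown. The number of reads piled up at a summit, the highest point of a peak, was worked back from the fold and the p-value of each peak, with a median of 22 over all peaks of either list and a lowest value of 4. Whether reads were extended before they were piled up is not stated, and no peak was narrower than 293 bp. A summit therefore does not mark the exact crosslinked base. All 5 epithelial markers looked up (EPCAM, CDH1, KRT8, KRT18 and KRT19) had overlapping peaks, and 0 of 7 markers of blood, stromal, endothelial, muscle or liver cells did. PTPRC and COL1A1, both among the latter, each had a peak in only 1 list.

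Short stretches of the mRNAs are shown first, in hg38 coordinates and 5′ to 3′ on the strand of the gene, because the results turn on where peaks lie relative to them. The first set holds 30 nt around the highest summit of replicate 1 for the genes whose highest summits in the replicates lay at most 7 nt apart, and for FOS. GGAC, the core of the m6A consensus, and ATTTA are in capitals.

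IER3, CDS, chr6:30743975-30744004, minus strand: acttcggagccctcGGACtacgctctGGAC

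FOSL1, CDS, chr11:65893182-65893211, minus strand: tgctggaagcccaccgacccatctgcaaaa

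IER2, CDS, chr19:13153365-13153394, plus strand: cgttgccggccgccctcccctctgaccctc

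FOS, start of a coding exon, chr14:75279866-75279895, plus strand: ttttgttctaGGACttctgcacGGACctgg

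In the FOS stretch the first 11 bases are intronic, so the first GGAC lies across a splice site and the next is within the coding exon. Neither the FOSL1 nor the IER2 stretch holds GGAC or ATTTA. The other set holds, for 6 of the genes, the 30 nt of the 3′ UTR with the most ATTTA copies, with ATTTA in capitals, to show which AU-rich stretches lay under a peak. The first 4 were outside every peak of both replicates, and those of JUND and IER3 were wholly under a peak in both.

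FOS, chr14:75282057-75282086, plus strand: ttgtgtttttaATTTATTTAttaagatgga

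FOSL1, chr11:65892272-65892301, minus strand: gagggcagctgctATTTAttttcctaaaga

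JUN, chr1:58781336-58781365, minus strand: ttccagaaaggatATTTAagaaaatacaat

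EGR1, chr5:138469063-138469092, plus strand: actgaaaatgtaaATTTAtaaatatattca

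JUND, chr19:18279998-18280027, minus strand: tcgattctgccctATTTAtgtttctactcg

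IER3, chr6:30743648-30743677, minus strand: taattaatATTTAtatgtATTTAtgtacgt

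**Figure D1:**
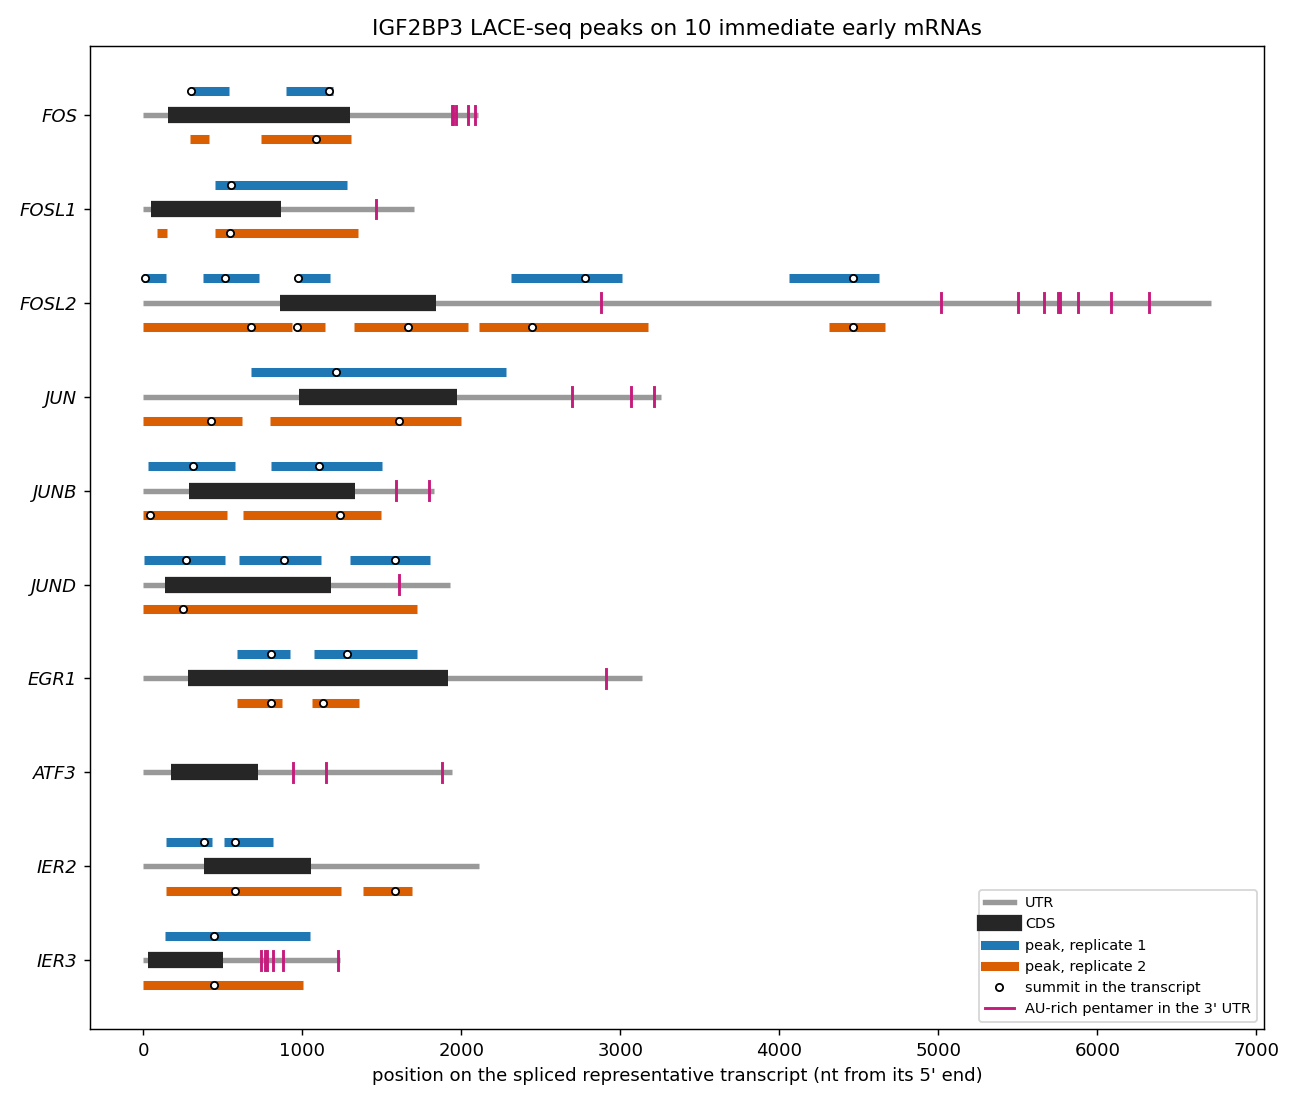
Peaks of both replicates on the spliced MANE Select transcript of each gene, in nt from its 5′ end, with the CDS in black, the UTRs in grey, summits as open circles and ATTTA pentamers of the 3′ UTR as vertical ticks. On the spliced mRNA, peaks of EGR1 lie on the CDS, and those of FOS on the CDS and, in replicate 2, on 9 nt of the 3′ UTR. They end before the pentamers, whereas the peak of IER3 covers 5 of 6 pentamers, and ATF3 has no peak.

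FOS, on chromosome 14 from 75278826 to 75282230, encodes the founding partner of JUN in AP-1. Replicate 1 had a peak from 75279694 to 75280118 with 26 reads at the summit and a fold enrichment of 8.15, and another from 75281022 to 75281317 with 17 reads and a fold of 5.38. Replicate 2 had a peak from 75279693 to 75279995 with 23 reads and a fold of 6.58, and another from 75280869 to 75281433 with 25 reads and a fold of 7.19. Both regions overlapped between the replicates, with summits 63 and 84 bp apart. The upstream peaks reached across a 3′ splice site, with 183 and 184 of their bases outside the spliced transcript. The summit of the upstream peak in replicate 2 lay in the intron of the main transcript, in a stretch annotated as 5′ UTR in another transcript. On the mRNA, the bases under peaks in both replicates were codons 48 to 87 and 247 to 346 of 380. None of them was in the 3′ UTR.

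FOSL1 encodes Fra-1, an AP-1 partner without the transactivation domain of FOS, and lies on chromosome 11 from 65892049 to 65900573. Its main peak was alike in the replicates, from 65892469 to 65893445 with 61 reads and a fold of 10.6 in replicate 1, and from 65892401 to 65893450 with 47 reads and a fold of 8.37 in replicate 2. The summits were 7 bp apart in the CDS. The peaks started upstream of the last exon and covered codons 136 to 271, the stop codon and the first 417 nt of the 3′ UTR in both replicates. Replicate 2 alone had a further peak at the first intron with 13 reads and a fold of 6.61, which reached 60 nt of CDS.

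FOSL2, which encodes Fra-2, lies on chromosome 2 from 28392448 to 28417317, has the longest mRNA of the set, at 6713 nt, and had the most peaks, 5 in each replicate. Its largest fold enrichment was at a peak across a 3′ splice site that reached codons 35 to 94 in both replicates, at 13.8 in replicate 1 (42 reads) and 12.1 in replicate 2 (44 reads), with summits 7 bp apart. In the 3′ UTR, a peak 2618 nt past the end of the CDS in replicate 1 (59 reads) had its summit 1 bp from that of replicate 2 (75 reads). Another 3′ UTR peak had 70 and 79 reads with summits 338 bp apart. These 3′ UTR peaks had low folds, between 3.94 and 4.54, over a local background of 14.2 to 17.1 reads. The peak at codons 35 to 94 stood over 2.11 and 2.73 reads. With no control library analysed, this background may include reads of the same mRNA. A low fold therefore cannot be read as weak binding. The 5′ UTR held peaks of 16 and 18 reads in replicate 1 and a peak of 54 reads in replicate 2. A peak over codons 155 to 326 and the stop codon had 90 reads in replicate 2 and had no overlapping peak in replicate 1.

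JUN, on chromosome 1 from 58776845 to 58784048, encodes the AP-1 subunit that can pair with itself or with FOS proteins, and its gene has no intron. A peak covered the whole CDS of 331 codons in both replicates. It was 1601 bp wide with 33 reads and a fold of 5.98 in replicate 1, and 1204 bp wide with 49 reads and a fold of 6.39 in replicate 2. The summits were 397 bp apart, so the lists shared the region but not a narrow site. Replicate 2 alone had a peak in the 5′ UTR, with 32 reads and a fold of 4.22.

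JUNB, on chromosome 19 from 12791486 to 12793315, is likewise intronless and encodes an AP-1 subunit that can counteract JUN. Both replicates had a peak at the start of the mRNA, with 30 and 33 reads, and another over the end of the CDS, with 29 and 55 reads. The bases shared by the replicates ran from the 5′ UTR to codon 81 and from codon 173 through the stop codon to 166 nt of the 3′ UTR. The exact Poisson 95% interval of the downstream summit was 19.4 to 41.6 reads in replicate 1 and 41.4 to 71.6 in replicate 2. These intervals cover counting error only, and the libraries were not scaled to each other. HOOK2, a protein-coding gene on the opposite strand, spans JUNB, and 259 of its exonic bases lay under the peaks while none of the summits did.

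JUND, on chromosome 19 from 18279694 to 18281622, encodes the most constantly expressed JUN protein. Replicate 1 had 3 peaks with 52, 68 and 40 reads from the 5′ to the 3′ end. Replicate 2 had a peak of 1721 bp with 88 reads that overlapped all 3 and covered the whole CDS. In all, 74.6% of the transcript lay under peaks in both replicates, the largest share of the 10 genes. The most downstream summit of replicate 1 was 399 nt past the end of the CDS in the main transcript, in a base that another transcript of the gene uses as CDS.

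EGR1, on chromosome 5 from 138465479 to 138469303, encodes a zinc finger factor of growth responses and had the lowest pileup of the 9 genes in replicate 1, level with FOS in replicate 2. Replicate 1 had 17 and 19 reads at its 2 summits and replicate 2 had 25 and 17 reads, with folds between 5.24 and 7.83. All 4 summits were in the CDS, and the upstream pair was 5 bp apart. The peaks shared codons 103 to 198 and 265 to 358 of 543. No base of the 5′ UTR, the stop codon or the 3′ UTR was under a peak. ATF3, on chromosome 1 from 212565334 to 212620777, had no peak, which says only that none passed the authors' threshold and does not show that IGF2BP3 was absent from it.

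IER2 encodes a small nuclear regulator and lies on chromosome 19 from 13150411 to 13154911. Replicate 1 had peaks with 21 and 23 reads, at the start codon and over codons 41 to 144. Replicate 2 had a peak of 1152 bp with 61 reads over the whole CDS, whose summit fell on the same base (13153380) as that of replicate 1, and a peak with 41 reads in the 3′ UTR that had no partner. The Poisson intervals of the summits on the same base, 14.6 to 34.5 and 46.7 to 78.4 reads, did not overlap. As for JUNB, they cover counting error only and the libraries were not scaled to each other, so no difference in binding follows. A lncRNA gene on the opposite strand had 292 exonic bases under the peaks of replicate 1, with 1 summit among them, and 805 under those of replicate 2. As peaks carry no strand, reads of either gene cannot be told apart there.

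IER3 encodes a short survival-associated protein and has the shortest mRNA of the set (1237 nt), on chromosome 6 from 30743199 to 30744548. It had a single peak in each replicate and the highest pileup of the 10 genes in replicate 1. The peak ran from 30743390 to 30744411 with 91 reads and a fold of 8.24 in replicate 1, and from 30743428 to 30744772 with 90 reads and a fold of 9.52 in replicate 2. The summits were 1 bp apart, 53 and 54 nt before the end of the CDS, and the bases shared by the replicates ran from codon 36 to 508 nt past the stop codon. Exons of the lncRNA genes IER3-AS1 and HCG20 on the opposite strand lay under parts of the peaks but not under the summits. The summit sequence of 31 nt occurred once on the chromosomes and 5 more times on alternate sequences of chromosome 6, whereas those of the other 8 genes occurred once in the genome.

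**Figure D2:**
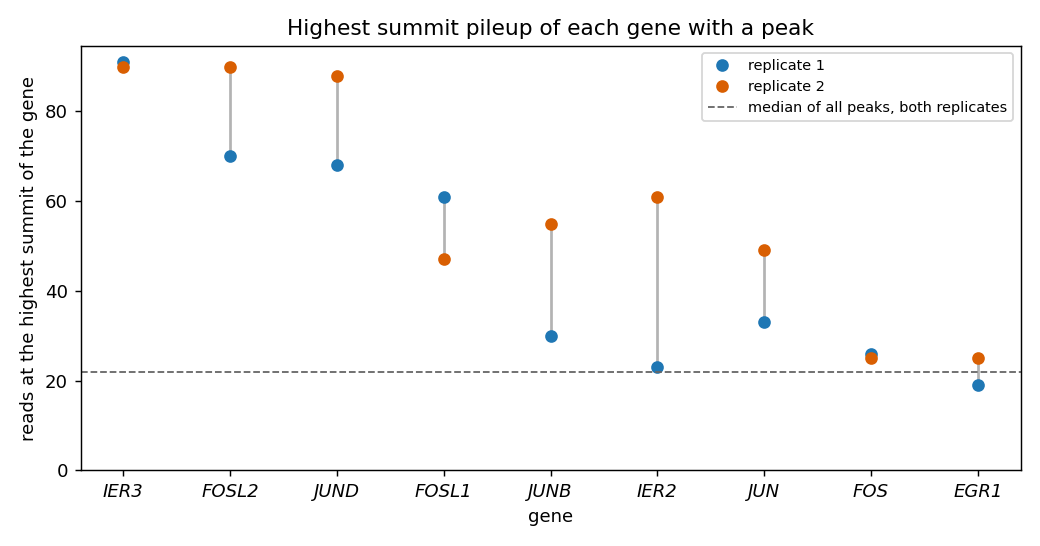
Reads at the highest summit of each gene (y axis) for replicates 1 and 2 (points, joined by a line), ordered by their sum, with the median of all peaks dashed. IER3, FOSL2 and JUND reach 68 to 91 reads, FOS and EGR1 stay between 19 and 26, close to the median of 22, and IER2 differs most between the replicates. Joined points can come from different sites of a gene.

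In order of the highest summit, IER3 (91 and 90 reads), FOSL2 (70 and 90) and JUND (68 and 88) came first, followed by FOSL1 (61 and 47), JUNB (30 and 55), IER2 (23 and 61) and JUN (33 and 49). FOS (26 and 25) and EGR1 (19 and 25) came last. The order of neighbours was not the same in the replicates, except that IER3, FOSL2 and JUND stood above the rest in both. Only for IER3, FOSL1 and IER2 were the highest summits of the replicates at most 7 bp apart. In the other genes the paired values come from different sites, so they do not show that a site recurred. Ranked within its list, the highest summit of a gene had a median percentile of 69.9 in replicate 1 and 87.9 in replicate 2 (78.9 ± 12.7, SD, n = 2) over the 9 genes, against 59.8 and 57.1 over all protein-coding genes with a peak. The median fold enrichment over the 19 peaks was 5.98 and 6.61, below the 6.89 and 7.13 of all peaks. The recovered local background was higher, at a median of 3.55 and 5.35 reads against 2.05 and 1.79. It may include reads of the same mRNA, so the lower folds cannot be read as weaker binding. The peaks were also wide, with medians of 508 and 687 bp against 336 and 342 bp. Of the 19 peaks, 2 in replicate 1 and 7 in replicate 2 were at least 1000 bp wide, as were 3.36% and 2.97% of all peaks.

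The peaks lay mostly on coding sequence. In replicate 1, 14 of 19 summits were in the CDS (73.7%, Wilson 95% interval 51.2 to 88.2), and in replicate 2, 11 of 19 (57.9%, interval 36.3 to 76.9), against 30.6% and 30.8% of all peaks on protein-coding genes. The immediate early genes have at most 4 exons each, and 32.9% and 29.8% of all peaks on protein-coding genes had an intronic summit. Over summits in the CDS or a UTR alone, the CDS held 73.7% and 61.1% on the immediate early genes and 50.02% and 49.6% on all genes. The interval of the immediate early genes in replicate 2, 38.6 to 79.7%, contained the value of all genes. The 3′ UTR held 2 and 3 summits and the 5′ UTR 3 and 4. These classes use all transcripts of a gene. By the main transcript alone, the mean share in the CDS was 63.2% instead of 65.8%. The most downstream JUND summit of replicate 1 is then in the 3′ UTR, and the upstream FOS summit of replicate 2 is intronic.

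Counted in bases, peaks covered 63.2% of the CDS of the 9 genes in replicate 1 and 75.3% in replicate 2, against 16.0% and 16.5% for all protein-coding genes with a peak. For the 3′ UTR these shares were 26.6% and 31.9% against 15.3% and 11.9%, and for the 5′ UTR 45.2% and 74.6% against 21.3% and 38.2%. The median gene of the 9 had 60.3% and 90.5% of its CDS under a peak. The median over all genes with a peak was 12.6% and 12.7%, and over those with at most 4 exons, as the immediate early genes have, it was 28.1% and 28.2%. The whole CDS was covered for 1 of the 9 genes in replicate 1 (JUN) and for 4 in replicate 2 (JUN, JUND, IER2 and IER3). Over all genes with a peak, whatever their number of exons, it was covered for 0.523% and 0.604%. JUN and JUND have 1 exon, and IER2 and IER3 have 2. The share for genes with as few exons was not computed, so these values are not a like comparison. Of 8808 nt under peaks in both replicates, 56.1% were CDS, 29.0% 3′ UTR and 14.9% 5′ UTR. No peak was narrower than 293 bp in replicate 1 or 294 bp in replicate 2, whereas the CDS of IER3 is 471 nt. Bases under a peak are therefore not a count of bound bases, and genes of like CDS length were not compared.

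**Figure D3:**
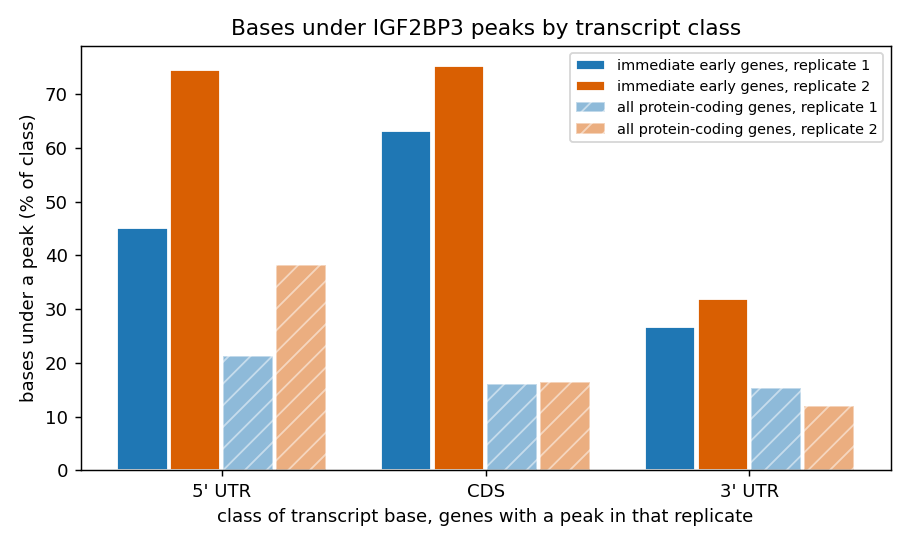
Share of 5′ UTR, CDS and 3′ UTR bases that lie under a peak (y axis, % of the bases of each class), for the immediate early genes with a peak (plain bars) and all protein-coding genes with a peak (hatched bars) in each replicate. The CDS of the immediate early genes reaches 63.2% and 75.3%, against 16.0% and 16.5%, and their 3′ UTR 26.6% and 31.9%.

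Peaks that contain the stop codon were counted because m6A on mRNA is known to cluster there. There were 4 of 19 in replicate 1 (21.1%, interval 8.51 to 43.3), on FOSL1, JUN, JUNB and IER3, and 8 of 19 in replicate 2 (42.1%, interval 23.1 to 63.7), on these and on FOS, FOSL2, JUND and IER2. Over all peaks on protein-coding genes the shares were 13.2% and 12.0%. The interval of replicate 1 contained the share of all peaks and the interval of replicate 2 did not. A wide peak contains the stop codon more easily, and the immediate early peaks were wide. Their median widths were 508 and 687 bp, against 336 and 342 bp for all peaks, and peaks of like width were not compared. In both replicates, every immediate early peak that contained the stop codon had its summit upstream of it. The shares therefore do not show binding at the stop codon itself. The stop codon of EGR1 was under no peak.

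The AU-rich pentamers behaved differently from gene to gene. The 3′ UTRs of the 9 genes with a peak hold 28 copies of ATTTA, of which 7 (Wilson interval 12.7 to 43.4%) lay under a peak in each replicate, and they were the same 7. Over all protein-coding genes with a peak, 10.1% of 37937 copies in replicate 1 and 5.32% of 37832 in replicate 2 were under a peak. The 7 of 28 are 25%, and 26.6% and 31.9% of all 3′ UTR bases of the 9 genes lay under a peak. The pentamers were thus not covered more often than the 3′ UTRs that hold them. In IER3, 74.1% and 68.9% of the 3′ UTR lay under the peak. IER3 alone gave 5 of the 7, and without it 2 of 22 copies (9.09%, interval 2.53 to 27.8) lay under a peak, 1 in FOSL2 and 1 in JUND. All 5 copies of FOS, 644 to 790 nt past the end of the CDS, were outside the peaks, as were the 3 of JUN, the 2 of JUNB and the 1 each of FOSL1 and EGR1. The 3′ UTR of IER2 holds none. In FOSL2 8 of 9 copies, from 3174 nt past the CDS onwards, lay downstream of every peak.

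Motifs were then counted from 50 nt before to 50 nt after each summit, on the gene strand. ATTTA was present at 2 of 19 summits in replicate 1 and 1 of 19 in replicate 2, against 10.0% and 6.45% of all peaks on protein-coding genes. In both replicates it was found at the FOSL2 peak across the 3′ splice site. In replicate 1 it was also found in the 3′ UTR of the main JUND transcript, at the summit counted above as CDS. Windows were read from the genome, so the FOSL2 windows include intron and no 3′ UTR. GGAC was present at 6 and 7 of 19 (31.6% and 36.8%) against 29.2% and 32.1%. TGGAC, which contains GGAC, was present at 3 and 1 of 19 against 10.1% and 9.93%. The comparison pentamer TATTA was found at 0 and 1 of 19 against 6.71% and 4.21%, and a count of 0 of 19 allows a share of up to 15.8%, taken as 3 counts of 19. Wherever a motif was found at a summit of the immediate early genes, the share over all peaks lay within their Wilson interval. Both IER3 summits had 2 copies of GGAC in their windows, of which 1 in each replicate was within TGGAC.

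Peaks of the immediate early genes often shared at least 1 bp with a peak of the other list, a rule that wide peaks meet more easily. All 19 peaks of replicate 1 (interval 83.2 to 100%) and 15 of 19 of replicate 2 (78.9%, interval 56.7 to 91.5) overlapped a peak of the other list, against 60.9% and 60.8% of all peaks on protein-coding genes. The 4 peaks seen in replicate 2 alone were those at the first intron of FOSL1, in the 5′ UTR of JUN, at the end of the CDS of FOSL2 and in the 3′ UTR of IER2. With summits at most 50 bp apart required, 6 of the 10 genes (FOSL1, FOSL2, JUND, EGR1, IER2 and IER3) had a shared peak, against 21.3% of all protein-coding genes. The highest summit stood at more reads in replicate 2 for 6 of the 9 genes, although the median of all peaks was 22 in both.

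Related genes were looked up in the same way. Of 38 other immediate early genes, 17 (44.7%) had an overlapping pair and 15 had no peak in either list, including FOSB, EGR2, EGR3 and EGR4, the close relatives of FOS and EGR1. The 5 with the highest summits in both lists were DUSP4 (119 and 186 reads) and KLF4 (76 and 112), a phosphatase of MAP kinases and a zinc finger factor, then MYC (81 and 74), the survival gene MCL1 (61 and 73) and ID1 (59 and 71), an inhibitor of helix-loop-helix factors. Of 19 other AP-1 and ATF family genes, 9 had a pair, led by MAFG (79 and 70 reads), ATF7 (75 and 37), MAFK (34 and 49), ATF4 (54 and 31), and, level in replicate 2, JDP2 (30 and 22) and ATF6 (23 and 22). MAFG, ATF7, MAFK and JDP2 had their highest summits in the 3′ UTR in both lists, and ATF4 and ATF6 in the CDS.

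Of 15 genes of the signalling that induces immediate early promoters, 11 had a pair, among them SRF (70 and 66 reads), the factor that binds the serum response element, and ELK4, RPS6KA3 and MRTFA (41 to 74 reads). Of 12 genes for proteins that bind AU-rich elements or the coding determinant of FOS, 11 had a pair and all 12 had a peak in each list. PABPC1, the cytoplasmic poly(A)-binding protein, had 242 and 259 reads, and ZFP36L1 and ZFP36L2, which recruit deadenylases to AU-rich elements, had 181 and 158 and 141 and 183 reads. KHSRP (93 and 90) and HNRNPD (77 and 67) followed. These lists were chosen with earlier results known and are counts beside the 30.5% of all protein-coding genes, not tests.

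**Figure D4:**
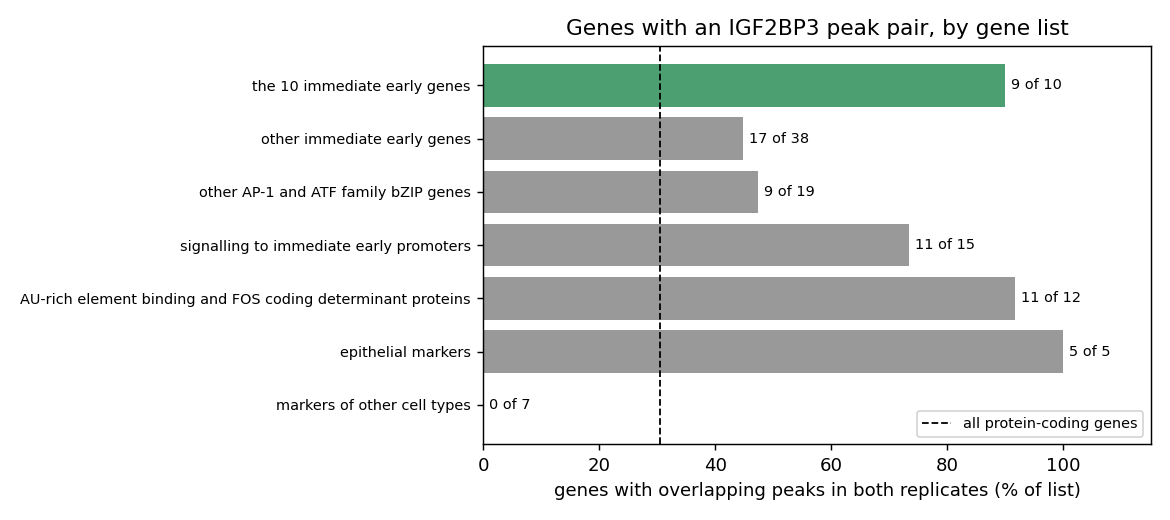
Share of each gene list with overlapping peaks in both replicates (x axis, % of the list; counts at the bar ends), with all protein-coding genes as a dashed line at 30.5%. The 10 immediate early genes stand at 9 of 10, the other immediate early genes at 17 of 38 and the markers of other cell types at 0 of 7.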

How the data were processed

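IGF2BP3 LACE-seq peaks of 2 OE-19 samples were used, 1 list per replicate. Nothing in the labels says whether the replicates came from separate cultures. The submitters' processing notes name fastp, HISAT2, MACS2 and hg38, whereas the study's methods name Bowtie and Piranha; the deposited columns and peak names are in the layout of MACS2. Whether reads were aligned across splice junctions is therefore not settled, which bears on peaks at exon edges. The authors deposited fold enrichment (a ratio over a local background), −log10 p-values and −log10 q-values, and summit positions for each peak; no strand is given, so a peak took the strand of its gene. The lowest deposited −log10 q was 2.18 and 2.15.

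Summit pileups were recovered as the whole number that gives the deposited fold and Poisson p-value, which worked for 41941 of 41941 peaks (within 0.001 of the −log10 p). Code was tested on simulated data. No peak ran past the end of its chromosome in the reference, and 46 and 36 peaks on sequences it does not name were left out of gene counts. Positions on mRNAs use the MANE Select transcript. Summit classes were taken in the order CDS, 3′ UTR, 5′ UTR, other exon, intron over all transcripts of a gene. A peak that overlaps several genes was counted for each. Coordinates are 1-based. Wilson intervals are 95% intervals, and all intervals cover counting error only. Peak lists do not show whether reads are copies of the same molecule, and neighbouring peaks are not independent. All 10 genes are named, and up to 5 per further list, those with a peak pair whose weaker replicate ranked highest by summit pileup (6 in the AP-1 and ATF list, where the last 2 tied); 1 gene that this rule names is not reported here. The genes and lists were chosen with earlier results of these data known. Shares over exonic summits, genes with at most 4 exons, whole coding sequences, and ATTTA copies of whole 3′ UTRs with and without IER3 were added after values had been seen. Alternatives changed the q-value threshold, the overlap rule, gene assignment, transcripts, windows and replicates. Python 3.11.15, numpy 2.4.6, scipy 1.17.1 and matplotlib 3.10.9 were used.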

Additional observations from a re-analysis of the deposited data

How the results depend on the processing

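Of 48 alternative values for 8 results, 42 differed from the reported value by no more than the replicate SD or, for the counts, stayed at 19 peaks per list and at 6 to 9 genes with a pair, and 6 moved; 12 of the 42 came from a single replicate of 2 and could not come out otherwise. Keeping only peaks with a −log10 q of at least 5 left all 19 peaks of each list, and assigning peaks by the summit also changed no value. The mean share of peaks overlapping the other list was 89.5%. It fell to 57.9% when at least 50% of both peaks had to be shared and to 36.8% with summits within 50 bp. The genes with a pair fell from 9 to 7 and 6, against 5602 and 4274 of the 20033 protein-coding genes. These rules are stricter by construction, and the share of all peaks that meets them was not computed. ATTTA was found in 28.9% of whole peaks against 7.89% of summit windows, which are shorter. Leaving out the 4 genes that overlap another gene, an alternative chosen after seeing the data, gave 5 of the remaining 6 genes with a pair, 9 peaks per list and 83.3% of summits in the CDS against 65.8%. Leaving out a replicate gives no value for results that need both lists. The lowest summit on these genes held 13 reads, so small differences between summits were not detectable at this depth.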
